A study of Mus musculus with 11 samples.

Results

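The 43 genes described here encode the core machinery of autophagy, its cargo receptors and 3 of the transcription factors that control it, out of 55487 genes in the deposited count tables. They form a list of gene names ordered by step of the pathway, each matched to its mouse Ensembl row. All 43 had exactly 1 row, and all 43 passed the filter on low counts that left 10505 genes for testing. Autophagy encloses a portion of cytoplasm in a double membrane, the autophagosome, and delivers it to lysosomes for breakdown. A kinase complex around ULK1 starts the process, a lipid kinase complex around beclin 1 marks the growing membrane, and a conjugation system attaches proteins of the Atg8 family (LC3 and GABARAP) to that membrane, where they bind receptors that carry cargo. In muscle, autophagy is known for the turnover of mitochondria and damaged proteins. The kinase complex mTORC1, of which Raptor is the defining subunit, holds back both ULK1 and the transcription factor TFEB by phosphorylating them when nutrients are plentiful.

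RNA was measured by QuantSeq, a method that reads short tags next to the 3' ends of polyadenylated transcripts, in gastrocnemius muscle, with 4 wild-type, 3 Raptor knock-out and 4 Raptor mTOR double knock-out libraries. The labels do not say that each library came from a separate mouse, so p-values measure only the spread between these libraries. In the knockouts the loxP-flanked Raptor gene (Rptor), or Raptor and mTOR (Mtor) together, was the target of a tamoxifen-dependent Cre (Cre joined to a mutated estrogen receptor domain). The human skeletal actin promoter drove this Cre, which directs deletion to myofibres and leaves the other cells of the muscle with intact genes. All groups, wild type included, carry the label of tamoxifen treatment: it was begun at 3 months of age, was given in chow for 7 weeks, and muscle was collected 7 months after its start, with 450 ng of total RNA entering each library. The alleles and Cre status of the wild-type mice, and the strain and sex of all mice, are not stated in the labels.

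Library totals ran from 2791339 to 6328533 counts. Rptor stood at 9.83 ± 0.946 CPM in the wild-type libraries, 4.57 ± 0.63 in Raptor knockouts and 4.83 ± 0.566 in double knockouts (counts-per-million after TMM scaling, mean ± SD, n = 4, 3 and 4). Mtor stood at 20.8 ± 5.95, 20.6 ± 2.24 and 35.9 ± 3.36 CPM and so was higher, not lower, in the group labelled double knockout. In the deposited TPM the gap was much wider. Mtor ran from 1.97 to 4.98 TPM in the wild-type and Raptor-knockout libraries and from 26.8 to 38.7 TPM in the double knockouts. Why the 2 measures differ for Mtor was not tested. The labels do not place the loxP sites, and a tag outside a deleted stretch checks nothing about deletion, so the groups are called by their labels throughout. Xist, which is transcribed from an inactive X, separated 4 libraries (wild-type replicate 3 and replicates 1, 2 and 3 of the double knockout, 95.6 to 208 CPM) from the other 7 (at most 0.291 CPM). Ddx3y, a gene on the Y chromosome, stood at 0.316 CPM or less in those 4 libraries and at 59.6 to 91.8 CPM in the other 7. The 4 libraries with Xist thus had the pattern of female muscle and the other 7 that of male muscle. Sex was therefore unevenly spread over the genotypes. Double-knockout replicates 3 and 4 came from the smaller of the 2 sequencing runs. Because 3 of the 4 libraries with Xist and both libraries of the smaller run were double knockouts, the counts below are also given with and without them. Summed over 8 myofibre markers, libraries ranged from 95890 to 101400 CPM in the wild-type libraries, from 88030 to 96400 in Raptor knockouts and from 86460 to 104900 in double knockouts, with 2 of the 8 called higher and 3 lower in each knockout. Macrophage markers summed to 56.1 to 120 CPM in the wild-type libraries, 96.4 to 199 in Raptor knockouts and 135 to 175 in double knockouts, and 4 of 7 tested markers were called higher in each knockout. Fibroblast markers summed to 558 to 873, 896 to 1011 and 1002 to 1172 CPM, with 3 of 5 called higher in each knockout, while 0 of 5 endothelial, 0 of 4 adipocyte and 0 of 3 Schwann cell markers were called. None of these markers was at 0 in all libraries. The part of these cells in the results below was not tested, and in bulk muscle fewer cells of a type and less RNA per cell cannot be told apart.

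In the double knockout, 15 of the 43 autophagy genes fell and 3 rose against wild type, at an adjusted p under 0.05 in edgeR's quasi-likelihood test. Of all 10505 genes tested in this comparison, 13.7% were called lower, 13% higher and 26.7% in either direction, against 34.9%, 6.98% and 41.9% of the autophagy genes. The genes that fell were Ulk1, Ulk2, Rb1cc1, Becn1, Atg9a, Atg3, Atg4d, Map1lc3a, Map1lc3b, Sqstm1, Optn, Bnip3l, Fundc1, Pink1 and Tfeb, and those that rose were Atg7, Gabarap and Foxo3. The median log2 fold change of the 43 genes was -0.31, beside 0.02 over all genes tested, and single genes ran from -1.35 to 0.80. The libraries of the groups did not overlap for 21 of the 43 genes, or 48.8%, beside 26.8% of all genes tested. At an unadjusted p under 0.05, 23 of the 43 genes passed, or 53.5%, beside 37.9% of all genes.

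In the Raptor knockout, 9 of the 43 genes fell and 2 rose against the same 4 wild-type libraries. Of all genes tested, 9.43% were called lower, 8.73% higher and 18.2% in either direction, against 20.9%, 4.65% and 25.6% of the autophagy genes. Ulk1, Ulk2, Becn1, Atg9a, Map1lc3a, Map1lc3b, Tax1bp1, Pink1 and Tfeb fell, and Atg7 and Gabarap rose. The median log2 fold change was -0.27, beside 0.00 over all genes, and libraries did not overlap for 13 genes, or 30.2%, beside 27.3% of all genes. At an unadjusted p under 0.05, 17 genes passed, or 39.5%, beside 31.7% of all genes. The 2 comparisons share their wild-type libraries, so the values of both are set side by side below and their likeness is not itself a result. Against the wild-type mean, the median log2 difference over the 43 genes lay between -0.03 and 0.09 in single wild-type libraries, between -0.28 and -0.19 in Raptor-knockout libraries and between -0.42 and -0.28 in double-knockout libraries.

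**Figure D1:**
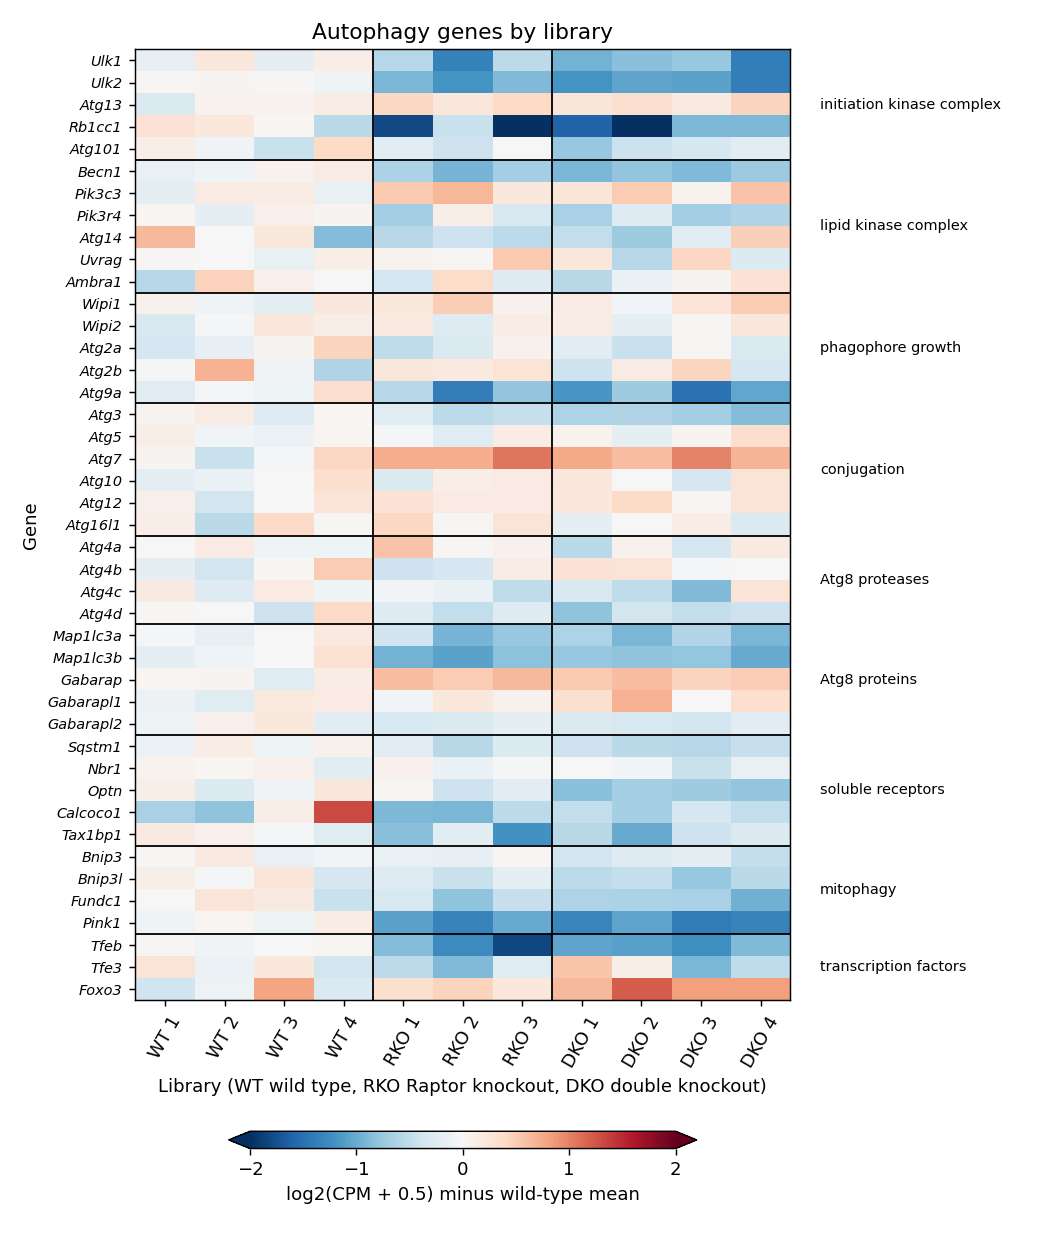
Each row is 1 of the 43 autophagy genes, grouped by step, and each column is 1 library; colour is the log2 level in TMM-scaled CPM minus the mean of the wild-type libraries, with blue lower and red higher. Ulk1, Ulk2, Becn1, Atg9a, Map1lc3a, Map1lc3b, Pink1 and Tfeb are blue in all 7 knockout libraries, and Atg7 and Gabarap are red in all 7.

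These counts depend on how the libraries are scaled and on which are included. Scaled by library totals instead of TMM, the median log2 fold change of all genes moved by 0.23 (double knockout) and 0.20 (Raptor knockout), and the split of higher to lower calls among the autophagy genes became 8 to 10 in double knockouts and 5 to 7 in Raptor knockouts. Over all 10505 genes tested, the split with library totals was 2421 to 844 in double knockouts and 1638 to 573 in Raptor knockouts. The autophagy genes then added as higher were Atg13, Pik3c3 and Wipi1 in both knockouts, and Atg12 and Gabarapl1 in the double knockout. With the log2 level of Xist as a covariate 14 of the 18 double-knockout calls and all 11 Raptor-knockout calls remained. Of all genes tested with that covariate, 17.8% were called in double knockouts and 17.6% in Raptor knockouts. Without the libraries that hold Xist, 1 double-knockout library was left, whose spread was taken from the other groups. Then 3 of the 18 calls remained (Ulk2, Pink1 and Foxo3), with 4.22% of all genes called, and all 18 genes kept their sign, from -1.49 to 1.09. In the Raptor knockout 8 of 11 calls remained without those libraries, with 11.3% of all genes called in that comparison, beside 18.2% with all libraries. Without the smaller sequencing run 11 of the 18 double-knockout calls remained, with 17.8% of all genes called in that comparison.

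The initiation kinases fell in both knockouts. ULK1 and ULK2 are the kinases that start autophagosome formation, RB1CC1 (FIP200) is their scaffold, and ATG13 and ATG101 are the regulatory subunits that join them. Of the 5 genes, 3 fell in double knockouts and 2 in Raptor knockouts, with a median log2 fold change of -0.98 and -0.78. Ulk1 (GRCm38 chr5:110784488-110810097) stood at 44.0, 57.2, 43.3 and 53.6 CPM in the wild-type libraries, 33.1, 18.95 and 34.0 in Raptor knockouts, and 25.3, 27.2, 28.9 and 18.6 in double knockouts. Every knockout library lay below the lowest wild-type library. The log2 fold change of Ulk1 was -0.98 ± 0.20 (SE) in double knockouts (edgeR adjusted p = 0.00149) and -0.78 ± 0.21 in Raptor knockouts (edgeR adjusted p = 0.017), where the call was lost without Raptor-knockout replicate 2 (-0.56), with library totals (-0.58) and with limma on TPM (-0.61 at a pseudocount of 1). Ulk2 (chr11:61775649-61855073) stood at 87.7, 89.7, 87.7 and 81.4 CPM in the wild-type libraries, 45.9, 37.4 and 46.7 in Raptor knockouts, and 37.6, 41.5, 41.1 and 32.8 in double knockouts. The groups were far apart beside their spread: the highest knockout library was at 46.7 CPM and the lowest wild-type library at 81.4. Ulk2 had a log2 fold change of -1.18 ± 0.13 in double knockouts (edgeR adjusted p = 9.92e-06) and of -0.999 ± 0.14 in Raptor knockouts (edgeR adjusted p = 0.000196). Its call was kept in every alternative run for both comparisons.

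Rb1cc1 (chr1:6206197-6276648) was far more variable. It stood at 167, 159, 141 and 93.5 CPM in the wild-type libraries, 38.7, 100.4 and 29.6 in Raptor knockouts, and 44.6, 28.6, 72.9 and 72.9 in double knockouts. The double knockout did not overlap with wild type, whereas Raptor-knockout replicate 2 lay within the wild-type range. Its log2 fold change was -1.35 ± 0.42 in double knockouts (edgeR adjusted p = 0.0364) and -1.31 ± 0.46 in Raptor knockouts (edgeR adjusted p = 0.0749, not called). The double-knockout call of Rb1cc1 was kept in 11 of 22 alternatives. It was lost without wild-type replicate 1 (-1.24), 2 (-1.28) or 3 (-1.37) or replicate 1 (-1.27) or 2 (-1.14) of the double knockout, with Xist as a covariate (-1.25), with library totals (-1.13), with no filter on low counts (-1.40), with limma on TPM (-1.11 and -1.15 at the 2 pseudocounts) and among the libraries without Xist (-0.96). It was kept at -1.94 both with the sequencing run as a covariate and without the smaller run. The Raptor-knockout value was called without Raptor-knockout replicate 2 (-2.03) and by the DESeq2 Wald test (-1.34). The remaining subunits were not called in the edgeR fit. Atg13 had a log2 fold change of 0.30 ± 0.16 in double knockouts and 0.35 ± 0.17 in Raptor knockouts, and its libraries did not overlap with wild type in either (10.8 to 14.9 CPM in the wild-type libraries, 15.7 to 17.9 and 15.1 to 18.3 in the knockouts). Atg101 had -0.47 ± 0.20 and -0.24 ± 0.21, and the former was called without wild-type replicate 3 (-0.63).

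In the lipid kinase complex, which makes the phosphatidylinositol 3-phosphate that marks the forming autophagosome, Becn1 alone passed the test, in both comparisons. Becn1 encodes beclin 1, the subunit through which activators and inhibitors act on the kinase. Its levels were 37.0, 38.6, 42.9 and 46.2 CPM in the wild-type libraries, 26.2, 21.4 and 25.5 in Raptor knockouts, and 21.5, 23.4, 21.998 and 24.7 in double knockouts, with no overlap between either knockout and wild type. Becn1 (chr11:101285952-101302286) fell by 0.85 ± 0.14 (log2) in double knockouts (edgeR adjusted p = 0.00034) and by 0.76 ± 0.15 in Raptor knockouts (edgeR adjusted p = 0.00253). The catalytic subunit Pik3c3 (VPS34) had a positive log2 fold change of 0.38 ± 0.21 in double knockouts and 0.50 ± 0.23 in Raptor knockouts and was not called. Its regulatory partner Pik3r4 (VPS15) had -0.57 ± 0.21 (edgeR adjusted p = 0.0515) and -0.28 ± 0.22, and the former was called in 5 alternatives, from -0.55 to -0.68. Atg14, Uvrag and Ambra1, which direct the kinase to its sites or regulate it, ranged from -0.28 to -0.00 in double knockouts and from -0.64 to 0.23 in Raptor knockouts, without a call.

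Growth of the membrane draws on ATG9A, a lipid scramblase carried on vesicles, the lipid transfer proteins ATG2A and ATG2B, and the phosphoinositide-binding proteins WIPI1 and WIPI2. Of these 5 genes only Atg9a passed the test, and it fell in both comparisons. Atg9a (chr1:75180860-75192196) stood at 39.8, 45.8, 43.4 and 59.1 CPM in the wild-type libraries, 31.0, 17.6 and 26.7 in Raptor knockouts, and 20.5, 28.3, 16.4 and 22.4 in double knockouts, so that no knockout library reached the wild-type range. The log2 fold change was -1.10 ± 0.20 in double knockouts (edgeR adjusted p = 0.000807) and -0.90 ± 0.22 in Raptor knockouts (edgeR adjusted p = 0.00913). Its counts were fractional in 5 libraries, as RSEM gives where reads are split between genes, and its exons overlap Gm29253 on the same strand and Ankzf1 on the opposite strand, so part of the tags may belong to those genes. Wipi1, Wipi2, Atg2a and Atg2b had log2 fold changes between -0.27 and 0.23 in double knockouts and between -0.27 and 0.27 in Raptor knockouts.

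**Figure D2:**
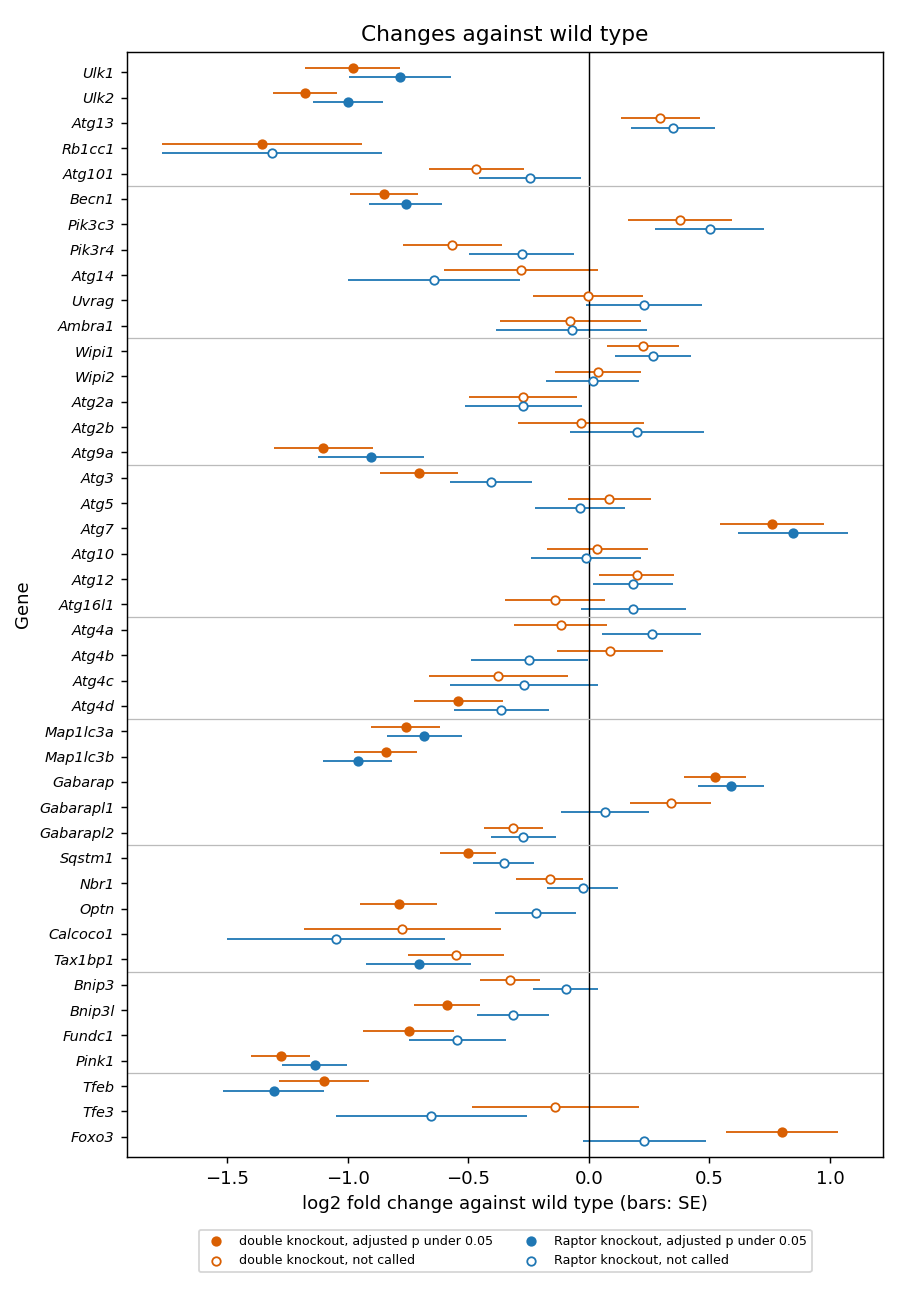
Log2 fold change of each of the 43 genes against wild type, with bars for the SE, in double knockouts (orange) and the Raptor knockout (blue); filled points have an adjusted p under 0.05. Falls reach -1.35 (Rb1cc1, double knockout), and the filled points to the right of 0 are Atg7, Gabarap and, in double knockouts, Foxo3.

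The conjugation genes moved in both directions. ATG7 is the E1-like enzyme that activates both ATG12 and the Atg8 proteins, ATG10 is the E2-like enzyme for ATG12 and ATG3 that for the Atg8 proteins, and ATG5, ATG12 and ATG16L1 form the complex that sets where Atg8 proteins are attached. Atg3 (chr16:45158785-45188538) stood at 22.6, 24.0, 17.9 and 22.1 CPM in the wild-type libraries, 18.2, 14.9 and 15.6 in Raptor knockouts, and 13.9, 14.006, 13.3 and 11.6 in double knockouts. The double knockout lay below both other groups. Its log2 fold change was -0.70 ± 0.16 in double knockouts (edgeR adjusted p = 0.00402) and -0.40 ± 0.17 in Raptor knockouts, which was not called (edgeR adjusted p = 0.115) but was called without wild-type replicate 3 (-0.53). Without the smaller run the double-knockout value was not called (-0.62). Atg7 went the other way. It stood at 6.21, 4.29, 5.92 and 8.11 CPM in the wild-type libraries, 10.3, 10.3 and 13.2 in Raptor knockouts, and 10.4, 9.43, 12.5 and 9.88 in double knockouts, with all knockout libraries above wild type. Atg7 rose by 0.76 ± 0.22 in double knockouts (edgeR adjusted p = 0.0157) and by 0.85 ± 0.23 in Raptor knockouts (edgeR adjusted p = 0.0167).

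The Atg7 calls rest on few tags, 12 to 47 counts per library. The double-knockout call was lost without replicate 3 of that group (0.67), with the sequencing run as a covariate (0.67), without the smaller run (0.67), with Xist as a covariate (0.74) and among the libraries without Xist (0.62). The Raptor-knockout call was lost without replicate 3 of its own group (0.72) and among the libraries without Xist (0.79). On the deposited TPM, limma also gave no call for Atg7 in double knockouts (0.58, adjusted p = 0.334) or in Raptor knockouts (0.75, adjusted p = 0.287). The ratio of TPM to CPM varied 3.54-fold between libraries for this gene, the widest range among the members. Atg5, Atg10, Atg12 and Atg16l1 had log2 fold changes between -0.14 and 0.20 in double knockouts and between -0.04 and 0.18 in Raptor knockouts, none of them called.

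ATG4 proteases trim newly made Atg8 proteins and later release them from membranes. Atg4d stood at 23.9, 23.6, 17.6 and 30.7 CPM in the wild-type libraries, 19.5, 16.5 and 19.7 in Raptor knockouts, and 13.3, 18.05, 16.7 and 17.4 in double knockouts. The highest double-knockout library lay just above the lowest wild-type library, and the Raptor knockout overlapped with wild type. Its log2 fold change was -0.54 ± 0.18 in double knockouts (edgeR adjusted p = 0.0387) and -0.36 ± 0.20 in Raptor knockouts (not called). The Atg4d call was kept in only 5 of 22 alternatives, with values from -0.69 to -0.30, and was lost without wild-type replicate 1 (-0.52), 2 (-0.53) or 4 (-0.39), without Raptor-knockout replicate 1 (-0.54), and without double-knockout replicate 1 (-0.47), 2 (-0.59), 3 (-0.55) or 4 (-0.56). Atg4a, Atg4b and Atg4c were called in neither comparison, with values from -0.37 to 0.09 in double knockouts and from -0.27 to 0.26 in Raptor knockouts.

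Among the Atg8 proteins themselves the LC3 genes fell and Gabarap rose, in both knockouts. LC3 and GABARAP proteins are attached to the autophagosome membrane, where they hold cargo receptors. Map1lc3a (chr2:155276297-155278073) stood at 171, 156, 173 and 199 CPM in the wild-type libraries, 132, 91.5 and 103 in Raptor knockouts, and 113, 92.4, 115 and 92.4 in double knockouts. Map1lc3b (chr8:121590361-121598760) stood at 177, 191, 202 and 248 CPM, then 105, 95.8 and 115, then 120.1, 116, 119 and 101. For neither LC3 gene did a knockout library reach the wild-type range. Map1lc3a fell by 0.76 ± 0.14 (log2) in double knockouts (edgeR adjusted p = 0.000918) and by 0.68 ± 0.16 in Raptor knockouts (edgeR adjusted p = 0.00579). Map1lc3b fell by 0.84 ± 0.13 (edgeR adjusted p = 0.000176) and by 0.96 ± 0.14 (edgeR adjusted p = 0.000258).

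Gabarap (chr11:69991143-69994951) stood at 51.1, 51.1, 41.6 and 55.0 CPM in the wild-type libraries, 75.9, 70.4 and 77.8 in Raptor knockouts, and 71.4, 76.5, 67.3 and 70.04 in double knockouts. All knockout libraries lay above all wild-type libraries. Gabarap rose by 0.52 ± 0.13 in double knockouts (edgeR adjusted p = 0.00632) and by 0.59 ± 0.14 in Raptor knockouts (edgeR adjusted p = 0.0066). The other GABARAP-type genes were not called. Gabarapl1 had a log2 fold change of 0.34 ± 0.17 in double knockouts and 0.07 ± 0.18 in Raptor knockouts. Gabarapl2 had -0.31 ± 0.12 and -0.27 ± 0.13, and was called without wild-type replicate 4 in both (-0.38 and -0.34) and by the DESeq2 Wald test in the double knockout (-0.34).

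**Figure D3:**
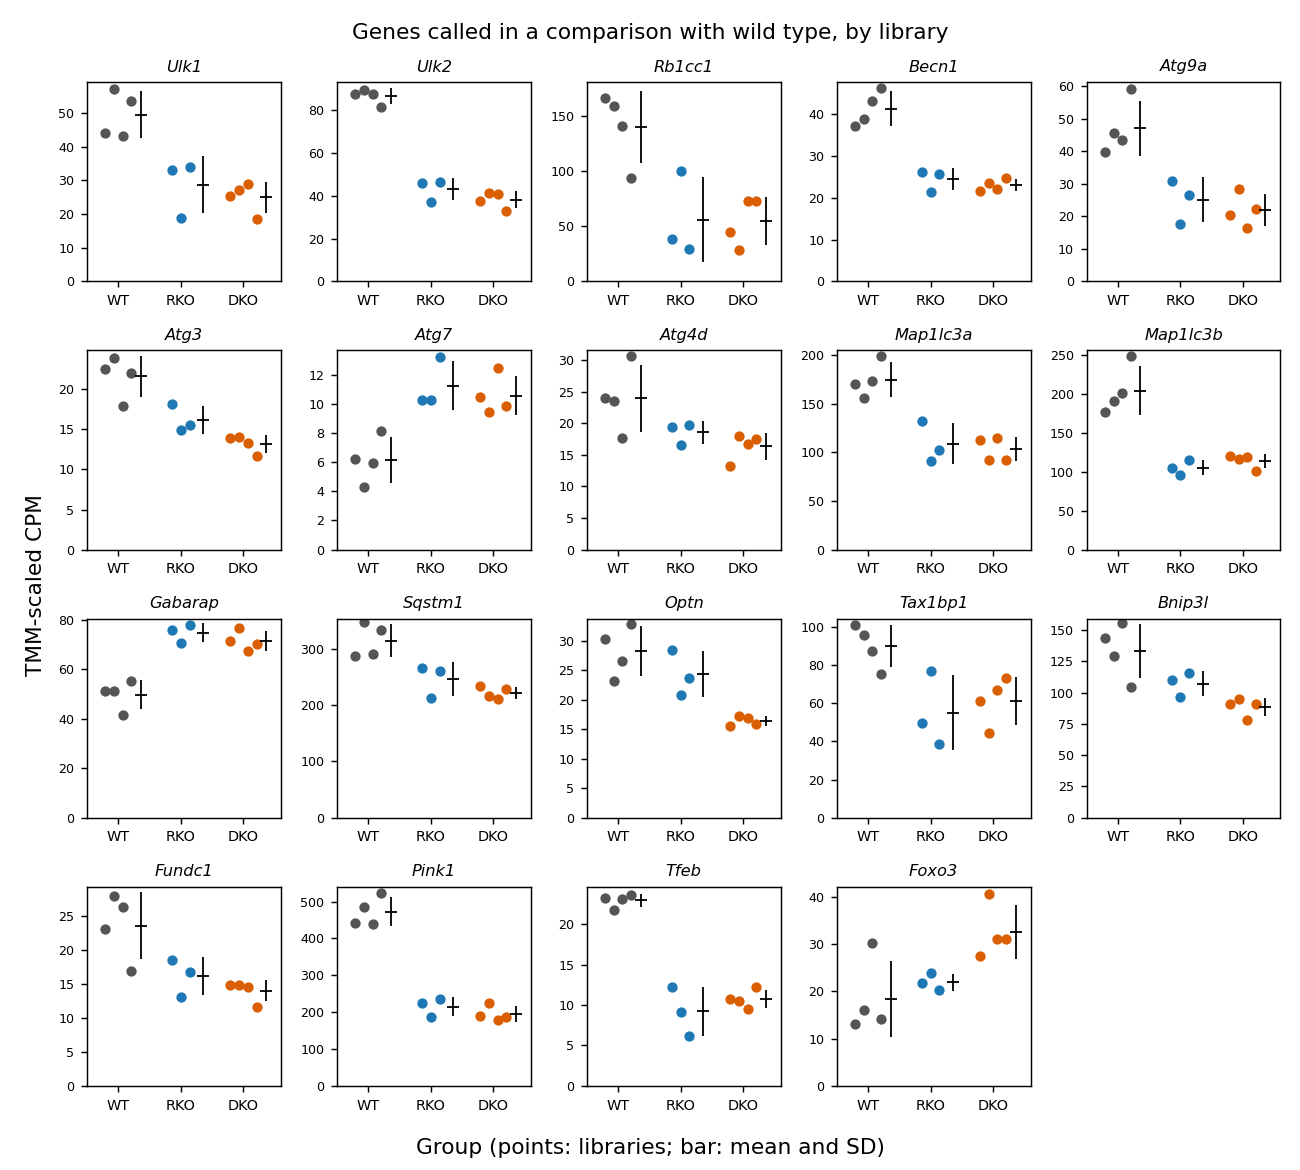
TMM-scaled CPM of the 19 genes called in at least 1 comparison with wild type, 1 panel per gene with its own axis from 0; points are libraries of wild type (WT), Raptor knockout (RKO) and double knockout (DKO), and bars give mean and SD. Ulk2, Map1lc3b, Pink1 and Tfeb show knockout libraries well below wild type, Gabarap and Atg7 show them above, and Rb1cc1 and Tax1bp1 show wide scatter within the groups.

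The soluble receptors bind cargo and Atg8 proteins at the same time, and those encoded by Sqstm1, Nbr1, Optn and Tax1bp1 recognise ubiquitin on the cargo. Of 5 genes, Sqstm1 and Optn fell in double knockouts and Tax1bp1 in Raptor knockouts. Sqstm1 encodes p62, the receptor for protein aggregates. It stood at 288, 347, 291 and 333 CPM in the wild-type libraries, 267, 213 and 260.1 in Raptor knockouts, and 234, 215, 211 and 229 in double knockouts. Neither knockout overlapped with wild type. The log2 fold change of Sqstm1 was -0.50 ± 0.12 in double knockouts (edgeR adjusted p = 0.00464) and -0.35 ± 0.13 in Raptor knockouts (edgeR adjusted p = 0.0645, not called), where leaving out wild-type replicate 3 (-0.43) or 4 (-0.32), DESeq2 size factors (-0.37) and the DESeq2 Wald test (-0.38) each gave a call. The double-knockout call of Sqstm1 was lost without the smaller run (-0.49), with library totals (-0.26) and with limma on TPM (-0.35). Optn encodes optineurin, a receptor for damaged mitochondria and bacteria. It stood at 30.4, 23.2, 26.6 and 32.9 CPM in the wild-type libraries, 28.5, 20.8 and 23.8 in Raptor knockouts, and 15.5, 17.2, 17.0 and 15.98 in double knockouts. The double-knockout libraries were tightly grouped below all others, and the Raptor knockout overlapped with wild type. Optn fell by 0.79 ± 0.16 (log2) in double knockouts (edgeR adjusted p = 0.00169) and had -0.22 ± 0.17 in Raptor knockouts (edgeR adjusted p = 0.399).

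Tax1bp1, another ubiquitin-binding receptor, stood at 101, 95.8, 87.2 and 75.5 CPM in the wild-type libraries, 49.7, 76.9 and 38.5 in Raptor knockouts, and 61.0, 44.2, 66.8 and 73.2 in double knockouts. The double knockout lay below wild type and Raptor-knockout replicate 2 within it. The log2 fold change was -0.71 ± 0.22 in Raptor knockouts (edgeR adjusted p = 0.035) and -0.55 ± 0.20 in double knockouts (edgeR adjusted p = 0.0517, not called). The Raptor-knockout call of Tax1bp1 was lost without wild-type replicate 1 (-0.63) or 2 (-0.66), Raptor-knockout replicate 1 (-0.64) or 3 (-0.51), or double-knockout replicate 4 (-0.70), with library totals (-0.51), with only the 2 groups in the fit (-0.69), with limma on TPM (-0.61 at a pseudocount of 1) and among the libraries without Xist (-0.75). The double-knockout value was called in 8 alternatives, from -0.54 with only the 2 groups to -0.77 with the sequencing run as a covariate, the others being DESeq2 size factors, the DESeq2 Wald test, no filter on low counts, and leaving out wild-type replicate 4 (-0.63) or Raptor-knockout replicate 2 (-0.55) or 3 (-0.56). Within wild type and within the Raptor knockout, Tax1bp1 and Rb1cc1 placed the libraries in the same order, and both were lowest in replicate 2 of the double knockout; this likeness was noticed after the values were seen. Calcoco1 ran from 29.3 to 57.1 CPM in 3 wild-type libraries but reached 131 in replicate 4, and its log2 fold changes of -0.77 ± 0.41 and -1.05 ± 0.45 were not called by edgeR. The DESeq2 Wald test called Calcoco1 lower in the Raptor knockout (-1.07). Nbr1 had -0.16 ± 0.14 in double knockouts and -0.03 ± 0.15 in Raptor knockouts.

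The mitophagy genes, which serve the removal of mitochondria, all had negative log2 fold changes in both comparisons. In the double knockout 3 of the 4 fell, with a median of -0.67, and in Raptor knockouts 1 did, with a median of -0.43. PINK1 is a kinase that collects on depolarized mitochondria and marks them for removal, and Pink1 (chr4:138313409-138326307) had the smallest adjusted p of the 43 genes in both comparisons. It stood at 442, 485, 440.1 and 523 CPM in the wild-type libraries, 224, 186 and 235 in Raptor knockouts, and 189, 225, 178 and 186 in double knockouts. The highest knockout library, at 235 CPM, lay far below the lowest wild-type library. Pink1 fell by 1.28 ± 0.12 (log2) in double knockouts (edgeR adjusted p = 2.56e-06) and by 1.14 ± 0.13 in Raptor knockouts (edgeR adjusted p = 3.95e-05), and was called in every alternative run for both.

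BNIP3, BNIP3L (NIX) and FUNDC1 sit in the outer mitochondrial membrane and bind LC3 directly. Bnip3l (chr14:66985239-67008877) stood at 144, 129, 155 and 105 CPM in the wild-type libraries, 110.0, 96.4 and 116 in Raptor knockouts, and 91.3, 94.8, 78.2 and 90.7 in double knockouts. The double knockout lay below both other groups, while the Raptor knockout overlapped with wild type. Its log2 fold change was -0.59 ± 0.14 in double knockouts (edgeR adjusted p = 0.00499) and -0.31 ± 0.15 in Raptor knockouts (not called, but called at -0.41 without wild-type replicate 4). Fundc1 stood at 23.0, 27.9, 26.3 and 16.9 CPM in the wild-type libraries, 18.5, 12.99 and 16.7 in Raptor knockouts, and 14.9, 14.8, 14.6 and 11.6 in double knockouts. Wild-type replicate 4 lay within the Raptor-knockout range and above the double knockout. Fundc1 fell by 0.75 ± 0.19 (log2) in double knockouts (edgeR adjusted p = 0.00778) and had -0.54 ± 0.20 in Raptor knockouts (edgeR adjusted p = 0.0727), which was called without wild-type replicate 4 (-0.67). Without the smaller run the double-knockout calls of Bnip3l (-0.52) and Fundc1 (-0.66) were lost, as they were with the run as a covariate (-0.52 and -0.66), library totals (-0.36 and -0.52) and limma on TPM (-0.56 and -0.52 at a pseudocount of 1). Bnip3 ran from 76.4 to 94.1 CPM in the double knockout and from 96.9 to 120.5 in wild type, with a log2 fold change of -0.33 ± 0.12 that was not called (edgeR adjusted p = 0.0619). Bnip3 was called without wild-type replicate 3 (-0.39) or 4 (-0.35) and by the DESeq2 Wald test (-0.35). In the Raptor knockout Bnip3 had -0.10 ± 0.13.

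Of the transcription factors, Tfeb fell in both knockouts and Foxo3 rose in double knockouts. TFEB and TFE3 are related factors that switch on lysosomal and autophagy genes when mTORC1 is low, and FOXO3 drives autophagy genes in wasting muscle. Tfeb (chr17:47737030-47792419) stood at 23.2, 21.8, 23.2 and 23.7 CPM in the wild-type libraries, 12.3, 9.20 and 6.16 in Raptor knockouts, and 10.7, 10.5, 9.54 and 12.2 in double knockouts. Wild type was held within a narrow band, and all knockout libraries lay far below it. Tfeb fell by 1.10 ± 0.19 (log2) in double knockouts (edgeR adjusted p = 0.000427) and by 1.31 ± 0.21 in Raptor knockouts (edgeR adjusted p = 0.000432). Tfe3 had only 7 to 28 counts per library, and its log2 fold changes of -0.14 ± 0.35 and -0.65 ± 0.40 were not called.

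Foxo3 (chr10:42181841-42276755) stood at 13.1, 16.1, 30.3 and 14.2 CPM in the wild-type libraries, 21.8, 23.8 and 20.3 in Raptor knockouts, and 27.5, 40.7, 31.0 and 31.1 in double knockouts. The wild-type library at 30.3 CPM was replicate 3, the only one in its group with Xist, and it overlapped with the double knockout. The double-knockout library without Xist, replicate 4, stood at 31.1 CPM, above the 13.1 to 16.1 CPM of the wild-type libraries without Xist. Foxo3 had a log2 fold change of 0.80 ± 0.23 in double knockouts (edgeR adjusted p = 0.0181) and 0.23 ± 0.26 in Raptor knockouts (edgeR adjusted p = 0.577). Its double-knockout call was lost without wild-type replicate 1 (0.68) or replicate 2 of the double knockout (0.68), without the smaller run (0.87) and with Xist as a covariate (0.57, edgeR adjusted p = 0.0884), and was kept among the libraries without Xist (1.09, edgeR adjusted p = 0.0468). The related Foxo1, singled out after its values were seen, stood at 104 CPM in wild-type replicate 3 and at 112 to 172 CPM in the double-knockout libraries with Xist. In the 7 libraries without Xist it ranged from 24.6 to 52.6 CPM, and it was not called in double knockouts (1.305 ± 0.52, edgeR adjusted p = 0.0991). Leaving out replicate 3 of wild type (2.04) or replicate 4 of the double knockout (1.57) gave a call for Foxo1, as did limma on TPM (1.40 at a pseudocount of 1). Adipocyte markers were high in some of the same libraries, but not all 4 markers in each. Plin1 stood at 7.24 CPM in wild-type replicate 3 and at 0.715 to 4.06 in the rest of that group. It stood at 3.59 to 7.04 CPM in Raptor knockouts and at 11.1, 18.9, 2.92 and 3.20 in double knockouts. Fabp4 stood at 437 CPM in wild-type replicate 3 and at 196 to 290 in the rest of that group. It stood at 324 to 434 CPM in Raptor knockouts and at 326, 585, 314 and 216 in double knockouts. Cfd, an adipocyte protease, stood at 191 CPM in wild-type replicate 3 and at 52.5 to 97.2 in the rest of that group, at 78.5, 90.7 and 174 in Raptor knockouts, and at 237, 270.2, 139.9 and 70.9 in double knockouts. Adipoq, the adiponectin gene, stood at 30.3 CPM in wild-type replicate 3 and at 7.51 to 10.1 in the rest of that group, at 13.1 to 15.6 in Raptor knockouts, and at 28.1, 43.1, 16.96 and 11.3 in double knockouts. Over the 4 adipocyte markers (Adipoq, Plin1, Cfd and Fabp4) libraries summed to 307.7 to 666 CPM in the wild-type group, 433.7 to 630.5 in the Raptor knockout and 301.1 to 916.9 in the double knockout, and no marker was at 0 throughout a group. The part of Xist status and of these markers in the Foxo3 and Foxo1 values was not tested.

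**Figure D4:**
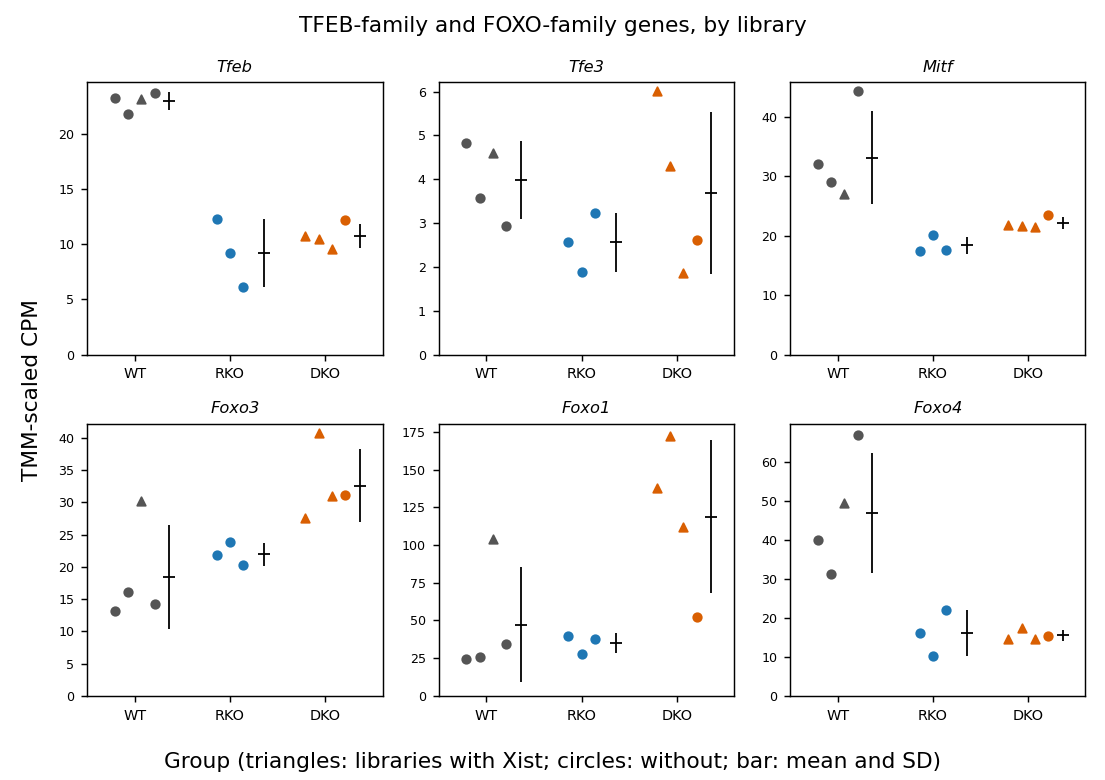
TMM-scaled CPM of Tfeb, Tfe3, Mitf, Foxo3, Foxo1 and Foxo4 by group, with axes from 0; triangles are libraries with Xist, circles those without, and bars give mean and SD. Tfeb, Mitf and Foxo4 are lower in both knockouts, and the wild-type triangle stands among the double-knockout libraries for Foxo3 and apart from its own group for Foxo1.

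Promoters were searched for the letters that these factors are known to bind, since calls of Tfeb and Foxo3 had opposite signs. TFEB and TFE3 bind CACGTG, best where GT precedes it and AC follows it, and FOXO factors bind GTAAACA. RefSeq promoters (GRCm38.p6, 250 bases before to 50 after the transcript start) were at hand for 36 of the 43 genes, 43 promoters in all, and Rb1cc1, Becn1, Pik3c3, Atg12, Atg16l1, Map1lc3a and Bnip3l had none. CACGTG, which reads the same on both strands, stood in 5 of the 43 promoters, or 11.6%, beside 7.15% of all 32851 promoters in the RefSeq table. The longer form, which contains it, stood in none (0.33% of all promoters), and GTAAACA, searched on both strands, stood in none (3.65% of all promoters). The 5 genes were Atg3, Atg5, Atg7, Atg14 and Bnip3. Atg3 is shown at length because it fell in double knockouts and holds CACGTG at 94 and again at 71 bases before the start. The others are shown as 36 bases around the motif, at 14 bases before the start in Atg5, 132 in Atg7, 1 in Atg14 and 108 in Bnip3. Capitals mark CACGTG, each sequence runs 5′ to 3′ on the gene's strand, and a match is a description of letters only.
Atg3, chr16:45158679-45158828, + strand: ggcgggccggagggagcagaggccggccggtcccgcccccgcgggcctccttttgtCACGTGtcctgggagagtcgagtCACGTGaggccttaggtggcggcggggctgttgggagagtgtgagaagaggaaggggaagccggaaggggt
Atg5, chr10:44268310-44268345, + strand: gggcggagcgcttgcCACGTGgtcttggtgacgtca
Atg7, chr6:114670949-114670984, + strand: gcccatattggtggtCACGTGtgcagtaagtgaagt
Atg14, chr14:47568415-47568450, - strand: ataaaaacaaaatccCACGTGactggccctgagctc
Bnip3, chr7:138909594-138909629, - strand: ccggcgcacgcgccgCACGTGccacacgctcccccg
Of the genes that hold the motif, Atg3 fell and Atg7 rose in double knockouts and Atg5, Atg14 and Bnip3 were not called. Ulk1, Ulk2, Pink1 and Map1lc3b, which fell in both knockouts, had a RefSeq promoter without CACGTG. Whether TFEB, TFE3 or FOXO factors act on any of these genes was not tested. The Atg7 and Atg14 windows lie inside their genes, downstream of the first start in GENCODE (114643097 for Atg7 and, on the minus strand, 47570649 for Atg14).

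Between the knockouts, which the study named as a comparison of interest, none of the 43 autophagy genes was called in either direction by edgeR, by the DESeq2 Wald test or by limma on TPM. In the edgeR fit 0.00952% of all genes were called higher in double knockouts than in Raptor knockouts, 0.019% lower and 0.0286% in either direction. At an unadjusted p under 0.05, Optn and Foxo3 passed, 2 of 43 or 4.65%, beside 9.49% of all genes. The groups did not overlap for Atg3, Optn, Bnip3, Bnip3l and Foxo3, 5 of 43 or 11.6%, beside 12.2% of all genes, so both shares were near or below the background. The median log2 fold change was -0.09, and single genes ran from -0.57 (Optn) to 0.57 (Foxo3). For 38 of the 43 genes the 95% interval lay within a 2-fold change in either direction, and the exceptions were Rb1cc1, Atg14, Calcoco1, Tfe3 and Foxo3. Optn had the interval -0.94 to -0.20 (edgeR adjusted p = 0.254) and Foxo3 0.03 to 1.11 (edgeR adjusted p = 0.5). For Ulk2 the interval ran from -0.48 to 0.13, for Pink1 from -0.42 to 0.14 and for Tfeb from -0.26 to 0.67. A gene called against wild type in 1 knockout only, such as Optn, Sqstm1, Bnip3l, Fundc1 or Foxo3, was therefore not shown to differ between the knockouts.

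**Figure D5:**
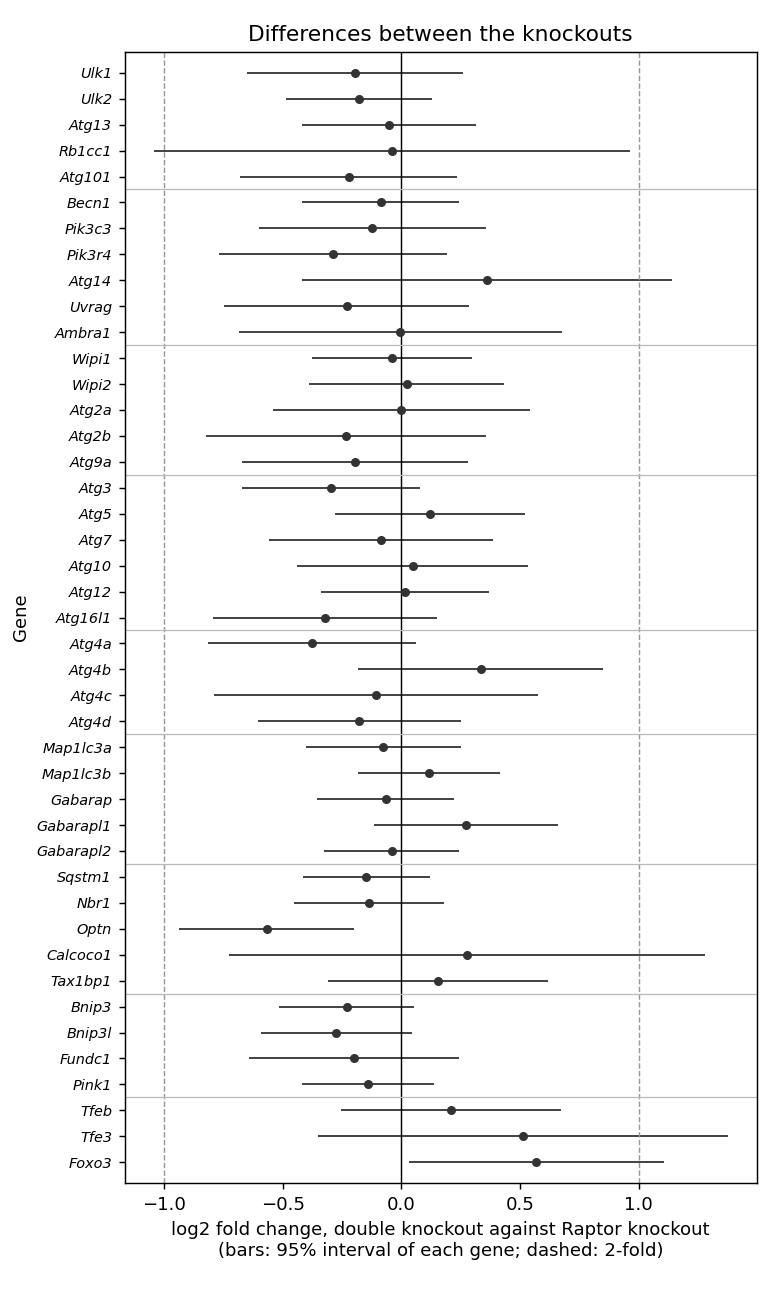
Log2 fold change of each of the 43 genes in double knockouts against the Raptor knockout, with bars for the 95% interval and dashed lines at a 2-fold change. All points lie between -0.57 and 0.57, and the intervals of Optn and Foxo3 do not include 0, although neither gene passed after adjustment over all genes.

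A second list of 44 genes held other parts of the pathway: further receptors, the fusion machinery, regulators and related transcription factors. Of these, 43 were tested (Tfec had at most 1 count in a library). In the double knockout 3 rose and 5 fell, 18.6% beside the 26.7% of all genes, and in Raptor knockouts 2 rose and 5 fell, 16.3% beside 18.2%. Between the knockouts none was called. The median log2 fold change was -0.12 in double knockouts and -0.11 in Raptor knockouts. Stbd1, a receptor that binds glycogen, stood at 18.6, 14.3, 21.7 and 15.6 CPM in the wild-type libraries, 53.6, 41.7 and 42.3 in Raptor knockouts, and 37.3, 49.0, 33.9 and 50.6 in double knockouts. It rose in both knockouts with no overlap, by 1.37 ± 0.19 in Raptor knockouts (edgeR adjusted p = 0.000166) and by 1.27 ± 0.18 in double knockouts (edgeR adjusted p = 8.82e-05). Phb2, an inner-membrane receptor for mitophagy, stood at 76.2, 72.2, 68.8 and 90.8 CPM in the wild-type libraries, 124, 122 and 126 in Raptor knockouts, and 122, 136, 117 and 126 in double knockouts. All knockout libraries lay above wild type. In the Raptor and the double knockout, in that order, Phb2 rose by 0.69 ± 0.13 (edgeR adjusted p = 0.00163) and by 0.70 ± 0.12 (edgeR adjusted p = 0.000489).

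Among the genes of that list that fell, Trp53inp2 (DOR), which moves from the nucleus to autophagosomes and binds Atg8 proteins, stood at 199.7, 196, 171 and 222 CPM in the wild-type libraries, 131, 112 and 139 in Raptor knockouts, and 101, 94.8, 92.0 and 79.3 in double knockouts. The 3 groups did not overlap with one another. Trp53inp2 fell by 0.63 ± 0.14 (log2) in Raptor knockouts (edgeR adjusted p = 0.00468) and by 1.10 ± 0.13 in double knockouts (edgeR adjusted p = 1.35e-05), and the difference between the knockouts, -0.47 ± 0.14, was not called (edgeR adjusted p = 0.213). Foxo4, a transcription factor of the FOXO family, stood at 40.0, 31.1, 49.3 and 66.9 CPM in the wild-type libraries, 16.2, 10.3 and 22.02 in Raptor knockouts, and 14.5, 17.5, 14.6 and 15.4 in double knockouts. Foxo4 fell in both without overlap, by 1.60 ± 0.24 in double knockouts (edgeR adjusted p = 0.000143) and by 1.55 ± 0.26 in Raptor knockouts (edgeR adjusted p = 0.000781). Mitf, a relative of TFEB and TFE3, stood at 31.99, 28.96, 26.97 and 44.4 CPM in the wild-type libraries, 17.4, 20.03 and 17.6 in Raptor knockouts, and 21.8, 21.5, 21.5 and 23.5 in double knockouts, with both knockouts below wild type. Mitf fell by 0.85 ± 0.18 in Raptor knockouts (edgeR adjusted p = 0.00434) and by 0.58 ± 0.17 in double knockouts (edgeR adjusted p = 0.0166). The double-knockout call of Mitf was lost with library totals (-0.34), without the smaller run (-0.61), with the run (-0.61) or Xist (-0.43) as a covariate, with limma on TPM (-0.39 at a pseudocount of 1) and among the libraries without Xist (-0.60).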

How the data were processed

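Gene tables came from 11 libraries in 2 sequencing runs. The authors deposited expected counts per gene and, per library, TPM. The submitters' processing notes name the tools RSEM 1.3.3, STAR 2.7.0 and fastp 0.20.0 and the build GRCm38 (mm10). The annotation release and whether counting used strand are not given in the sources used here. A further 6 deposited columns could be matched to no label and stayed out.

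The deposited expected counts were rounded (totals changed by 30.2 counts or less). Testing used edgeR 4.0.16 under R 4.3.3, with its filterByExpr filter, TMM scaling, a robust quasi-likelihood fit of all 11 libraries without covariate (8 residual degrees of freedom, biological coefficient of variation 20.6%), and two-sided tests with Benjamini-Hochberg adjustment over 10505 genes per comparison, called under 0.05. SE is the log2 fold change divided by the square root of F. Replicates are libraries numbered in record order. Alternatives used DESeq2 1.42.0 size factors and Wald test, library totals, no filter, 2 groups alone, the run or Xist as covariate, libraries left out, and limma 3.58.1 on log2 TPM (pseudocount 1 or 0.1, mean TPM of at least 1). The pipeline was tested on simulated data.

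The members, lists and tests were chosen with earlier results of these data known. Named with values in every library were the members called in any comparison, and from the second pathway list up to 4 called genes per comparison with the smallest adjusted p. Positions are from GENCODE on GRCm38. Of the 43 members, 6 had fractional counts in at least 1 library, from reads shared with other genes (Atg9a, Wipi2, Map1lc3b, Atg4a, Gabarapl2 and Bnip3l). Exons of 13 overlap a gene on the opposite strand, whose reads cannot be told apart without strand-aware counting; among called members these are Rb1cc1, Becn1, Atg9a, Atg4d, Map1lc3b, Sqstm1, Optn and Tax1bp1. Pink1 overlaps Gm27646 and Mir7019 on its own strand.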

Additional observations from a re-analysis of the deposited data

Results flagged for a closer look

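Of 86 groups of 4 libraries examined, 1 library stood apart from its group in 2, by Dixon's test of the gap beside the group's range at the 95% level, which chance passes in about 1 of 20 groups. Pik3r4 stood at 10.5 CPM in double-knockout replicate 2, beside 7.69 to 8.14 in the other 3 libraries of its group. Its log2 fold change against wild type was -0.57 and not called. It was called without that library (-0.68), and also without Raptor-knockout replicate 1 (-0.57) or 2 (-0.57), with DESeq2 size factors (-0.58) and when Raptor-knockout libraries were left out of the fit (-0.55). Fundc1 stood at 11.6 CPM in double-knockout replicate 4, beside 14.6 to 14.9 in the other 3, and its fall against wild type was called with and without it.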

How the results depend on the processing

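No paired analysis was possible because the labels give the groups no shared replicate numbers. In the double knockout against wild type, 3 members were called higher. The number was 8 with library totals, 1 without the smaller run, 1 with Xist as a covariate, 1 among libraries without Xist, and 2 to 3 when single libraries were left out. The 15 called lower became 10 with library totals, without the smaller run and with limma on TPM at either pseudocount, and 13 to 17 with single libraries left out. Among libraries without Xist, where 1 double-knockout library was left, fewer were called lower. In the Raptor knockout the 2 called higher became 5 with library totals, 1 with limma on TPM at either pseudocount, 0 among libraries without Xist, and 1 to 2 with single libraries left out (1 without Raptor-knockout replicate 3). The 9 called lower became 7 with library totals, and 7 and 6 with limma on TPM at pseudocounts of 1 and 0.1. They became 8 to 14 with single libraries left out, and 14 without wild-type replicate 4, which added Atg14 (-0.87), Gabarapl2 (-0.34), Sqstm1 (-0.32), Bnip3l (-0.41) and Fundc1 (-0.67). Without wild-type replicate 4, 23.1% of all genes were called in this comparison, beside 18.2% with all libraries. Limma on TPM (pseudocount 1) split higher to lower calls of all genes 1752 to 762 in double knockouts and 981 to 504 in Raptor knockouts. In the edgeR fit these splits were 1367 to 1435 and 917 to 991. Between the knockouts the count was 0 in every alternative. No called member changed sign. Of 396 alternative values for the 18 double-knockout calls 330 stayed called, and of 231 for the 11 Raptor-knockout calls 211 did. Ulk2 and Pink1 were called in every alternative in the double knockout, and Ulk2, Becn1, Atg9a, Map1lc3b, Pink1 and Tfeb in the Raptor knockout. Limma on TPM (pseudocount 1) shifted the all-gene median by 0.15 and 0.11 and did not test Tfe3. The cause of a change between settings was not tested. Depth limits Tfe3 (7 to 28 counts), Atg4c (9 to 33) and Ambra1 (11 to 35) most.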
